A study of Saccharomyces cerevisiae with 16 samples.

Results

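RNA levels were compared between ∆ntd and WT cells of the budding yeast Saccharomyces cerevisiae that grew in synthetic medium with 3% urea. The comparison rests on 4 of the 16 libraries of the series, namely the RNAseq libraries of 2 ∆ntd cultures and 2 WT cultures in urea, and it covers the 5486 genes that passed a filter on low counts out of 6692 in the table. Both strains were MATa cells with the alleles his3Δ1, leu2Δ0, ura3Δ0 and met15Δ0, and both lacked the chromosomal copy of TIF3, the gene of eIF4B. In its place they carried a single-copy plasmid with TIF3 under its own promoter and with a hexahistidine tag at the C terminus. The plasmid of the ∆ntd strain encodes eIF4B without its N-terminal domain, and that of the WT strain encodes the whole protein. The plasmid also holds HIS3, LEU2, URA3 and MET17, so that both strains grew without added amino acids or bases, and the labels name the WT strain BY4741. Cells from an overnight culture in SD, a glucose medium with ammonium sulfate, were diluted into SD with 3% urea and were harvested in mid-log phase. The cultures are described as biological replicates, and each strain is 1 genotype on 1 plasmid, so a difference found here is a difference between these strains. Another 4 RNAseq libraries, 2 cultures of each strain in SD without urea, entered the same fit.

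eIF4B is an initiation factor that helps to load mRNA onto the small ribosomal subunit. It works with the eIF4F complex, in which eIF4E binds the cap, eIF4G is the scaffold and eIF4A is the helicase, and its N-terminal domain binds the small subunit itself. Urea is taken up by yeast cells as a nitrogen source and at high concentrations perturbs protein folding. When growth slows or cells are stressed, yeast cells commonly raise the RNAs of a general stress program, which is driven by the transcription factors Msn2 and Msn4 through the element AGGGG, and lower RNAs needed for growth.

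In 3% urea, 1179 RNAs were higher in ∆ntd than in WT, which is 21.5% of the genes tested, and 1231 were lower, which is 22.4% (adjusted p under 0.05). Genes of the general stress program and the genes of the mitochondrial DNA were higher in ∆ntd, by medians of 1.58 and 1.32 on the log2 scale. Genes of glycolysis, of sulfate assimilation and methionine synthesis, of purine and one-carbon metabolism and of the proteasome were lower, with medians of -1.05, -0.94, -0.86 and -0.68. The gene lists were chosen with earlier results of these data known, so their medians and counts are descriptions and not tests of pathways. The median over all genes tested was 0.03, and 90% of genes lay between the 5th percentile of -0.89 and the 95th percentile of 0.83. Among the called RNAs, 155 were at least 2-fold higher and 204 at least 2-fold lower in ∆ntd. A change of at least 4-fold was seen for 24 RNAs that rose and 27 that fell. In 2396 of the 2410 called RNAs, both cultures of one strain lay beyond both cultures of the other. These RNAs were called from the same cultures, so the count is no separate support. The share over all genes tested is not given here.

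The RNAseq libraries of the ∆ntd cultures in urea held 2235178 and 1888481 reads on genes, against 3401612 and 5169546 reads in the WT cultures in urea. All levels below are CPM, the share of a library's reads after TMM scaling, in which the typical RNA is taken to be equal in all libraries. The 50 RNAs that were most abundant over the 8 RNAseq libraries took 21.1% and 21.8% of the reads in ∆ntd in urea, against 28.7% and 29.2% in WT in urea. When reads were scaled by library totals alone, the median RNA was shifted by 0.33 on the log2 scale towards ∆ntd, and 2759 RNAs were then called higher and 519 lower. Every change in this text is therefore a change relative to the typical RNA of the same cells, and total RNA per cell was not measured. The split also went with abundance. Of the 169 RNAs with a mean of at least 1000 CPM, 23 were higher and 109 lower in ∆ntd, while of the 3278 RNAs between 10 and 100 CPM, 734 were higher and 417 lower. Depth differed between the strains in the same cultures, and its part in this pattern was not tested. After all libraries were thinned to the smallest total, 1056 RNAs were called higher and 1039 lower, but these calls are not split by abundance here.

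**Figure D1:**
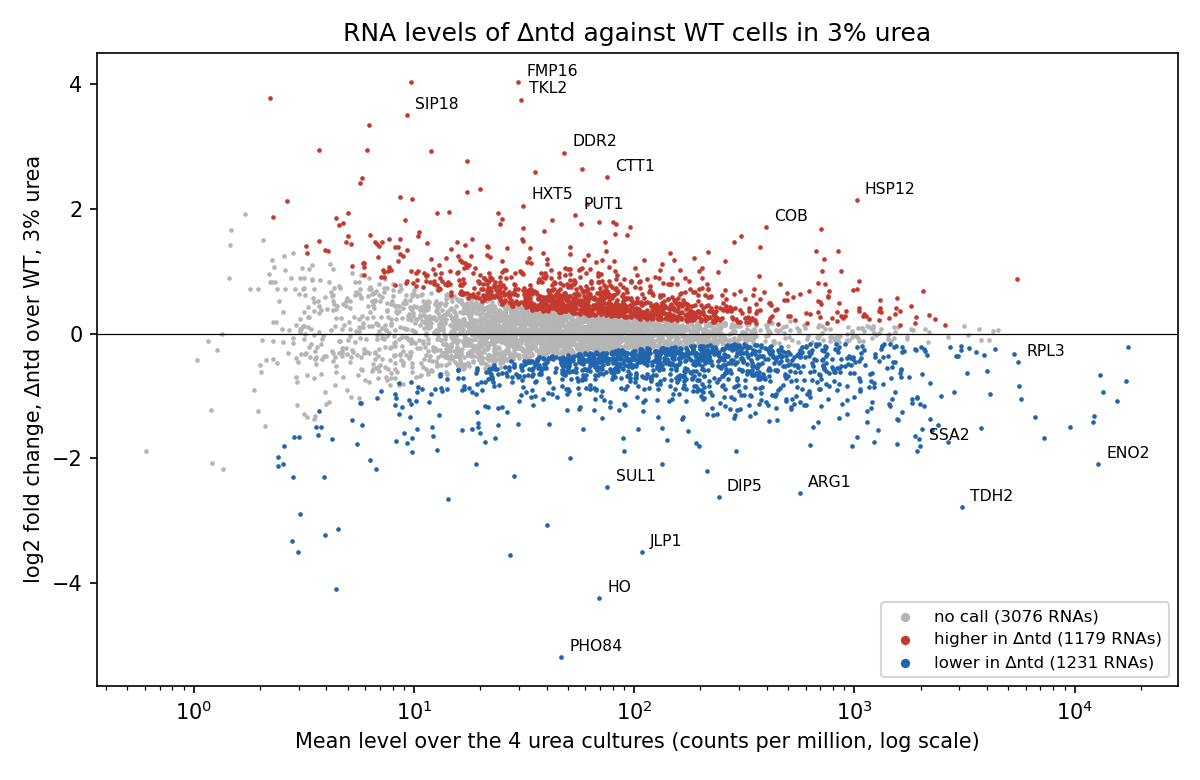
Each point is 1 of 5486 RNAs, with its mean level over the 4 urea cultures (CPM, log scale) on the x axis and the log2 fold change of ∆ntd over WT in 3% urea on the y axis. The 1179 red points were higher and the 1231 blue points lower in ∆ntd (adjusted p under 0.05), and the most abundant RNAs, among them ENO2 and TDH2, lie mostly below 0.

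TIF3 (chromosome XVI, 868645 to 869955 of the R64 genome, minus strand) had 2536 and 2535 CPM in the ∆ntd cultures, against 3286 and 3259 CPM in the WT cultures, a log2 fold change of -0.37 ± 0.06 (SE, adjusted p = 3.6e-06). The table counts reads over the whole gene, so it does not show whether the N-terminal part is absent. Fewer reads from a shorter reading frame and a lower RNA level cannot be told apart, and with library totals alone the difference was -0.04 and was not called. Of the 4 plasmid markers, LEU2 fell by 1.54 ± 0.06 on the log2 scale, to 1108 and 1187 CPM in ∆ntd, against 3271 and 3412 CPM in WT. MET17 also fell, by 0.60 ± 0.07, whereas URA3 was 0.53 ± 0.07 and HIS3 0.34 ± 0.06 higher in ∆ntd. The markers of 1 plasmid thus did not move together. The a-specific receptor STE2 had 691 and 813 CPM in ∆ntd, against 860 and 916 CPM in WT. With library totals alone its change of -0.24 turned to 0.08. Both strains thus held RNA of the a type. The alpha-factor genes MF(ALPHA)1 and MF(ALPHA)2 had 0 counts in both ∆ntd cultures in urea, against at most 3 and 1 counts in the WT cultures, whereas SAG1, the alpha agglutinin, was present in both strains, with 24.7 and 22.7 CPM in ∆ntd, against 16.2 and 14.4 CPM in WT. Of the 8 meiosis genes listed, 5 were tested and only NDT80, the middle-meiosis transcription factor, was called, with 18 and 13 counts in ∆ntd, against 9 and 6 counts in WT, a call that was lost without WT replicate 2 in urea, where the log2 fold change was 1.18.

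The general stress genes include targets of Msn2 and Msn4, and 4 that rose and hold the element AGGGG are shown with their upstream DNA, chosen after their values were seen. The lines give DNA of the R64 genome upstream of each, 5′ to 3′ on the strand of the gene, with each AGGGG or its complement CCCCT in capitals and 15 bases on each side of the outermost copies. The stretch of DDR2 lies 263 to 156 bases before the start codon (chrXV:231911-232018, minus strand), that of HSP12 450 to 358 bases before it (chrVI:106806-106898, plus strand), that of CTT1 393 to 344 bases before it (chrVII:654241-654290, plus strand) and that of SIP18 403 to 350 bases before it (chrXIII:610613-610666, plus strand).
DDR2: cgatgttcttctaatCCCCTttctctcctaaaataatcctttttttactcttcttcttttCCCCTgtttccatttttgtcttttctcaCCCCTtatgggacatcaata
HSP12: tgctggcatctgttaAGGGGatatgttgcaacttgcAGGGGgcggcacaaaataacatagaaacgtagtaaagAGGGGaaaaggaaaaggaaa
CTT1: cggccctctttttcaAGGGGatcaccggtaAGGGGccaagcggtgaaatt
SIP18: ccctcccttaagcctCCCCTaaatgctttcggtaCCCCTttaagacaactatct
The stretches of DDR2 and HSP12 hold 3 copies each, and those of CTT1 and SIP18 hold 2 each. On either strand of the 500 bases before the start codon, AGGGG was found in 17 of the 18 general stress genes, which is 94.4%, and in 34.0% of all 6008 genes with a position. The 1 without it was GRE1, which was among the RNAs of the list that rose most. It was found before 55.5% of the RNAs that were at least 2-fold higher in ∆ntd and before 37.7% of those at least 2-fold lower. Over all called RNAs the shares were nearly equal, 36.6% of those higher and 36.3% of those lower in ∆ntd. A match of letters is a description and shows no binding.

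Of these 18 general stress genes, 16 rose and 2 fell in ∆ntd in urea, and their summed level was 4671 and 4728 CPM in ∆ntd, against 2211 and 2208 CPM in WT. DDR2, a small stress-induced protein, had 83.8 and 85.7 CPM in ∆ntd, against 14.2 and 9.26 CPM in WT, a log2 fold change of 2.91 ± 0.17 (adjusted p = 1.1e-15). CTT1, the cytosolic catalase, had 132 and 124 CPM in ∆ntd, against 22.2 and 22.6 CPM in WT, a log2 fold change of 2.51 ± 0.12. For both genes every ∆ntd culture lay far above every WT culture, and the WT cultures agreed more closely for CTT1 than for DDR2. The hydrophilins SIP18 and GRE1, which are known from dehydration stress, were low in WT. SIP18 had 18.1 and 16.3 CPM in ∆ntd, against 0.674 and 2.03 CPM in WT, which are 2 and 9 counts. GRE1 had 32.5 and 28.6 CPM in ∆ntd, against 4.04 and 4.74 CPM in WT. The 2 genes that fell were GRE3, an aldose reductase, and PNC1, the nicotinamidase, with log2 fold changes of -0.49 ± 0.09 and -0.42 ± 0.08. With library totals alone these were -0.16 and -0.10 and neither was called, while 16 of the 18 genes were still called higher. HSP12, the membrane-associated heat shock protein, was outside the rule for named genes and was added after its values were seen because its sequence is shown. It had 1702 and 1633 CPM in ∆ntd, against 394 and 361 CPM in WT, a log2 fold change of 2.15 ± 0.06.

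The 15 largest rises held 11 RNAs beyond the list. FMP16, a mitochondrial protein of unknown function, had 60.0 and 52.2 CPM in ∆ntd, against 3.03 and 3.61 CPM in WT, a log2 fold change of 4.04 ± 0.23 (adjusted p = 1.3e-15). TKL2, the minor transketolase of the pentose phosphate pathway, had 55.1 and 59.1 CPM in ∆ntd, against 3.03 and 4.97 CPM in WT. ALD3, an aldehyde dehydrogenase that is induced by stress, had 108 and 92.1 CPM in ∆ntd, against 16.5 and 15.8 CPM in WT. All 3 were above 50 CPM in ∆ntd and under 20 CPM in WT. ALD3 shares 51.7% of its 28-base windows with other genes, so its reads, which were counted only where they mapped uniquely, cover part of the gene. The transcription factor USV1 rose by 2.93 ± 0.34, and HMS1, a helix-loop-helix factor that promotes filamentous growth, by 3.35 ± 0.47, with 29 and 22 counts in ∆ntd against 3 and 5 counts in WT. GAC1, a regulatory subunit that directs the Glc7 phosphatase to glycogen synthase, rose by 2.95 ± 0.45, with 24 and 24 counts in ∆ntd against 5 and 5 counts in WT. GPG1, a proposed subunit that acts with the G protein Gpa2, NCA3, a protein of the SUN family, and NDE2, an external NADH dehydrogenase of mitochondria, rose by 2.32 ± 0.27, 2.60 ± 0.21 and 2.20 ± 0.35. The last of the 15 were the unnamed reading frames YCL048W-A and YOR338W, with log2 fold changes of 4.04 ± 0.42 and 2.27 ± 0.27.

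**Figure D2:**
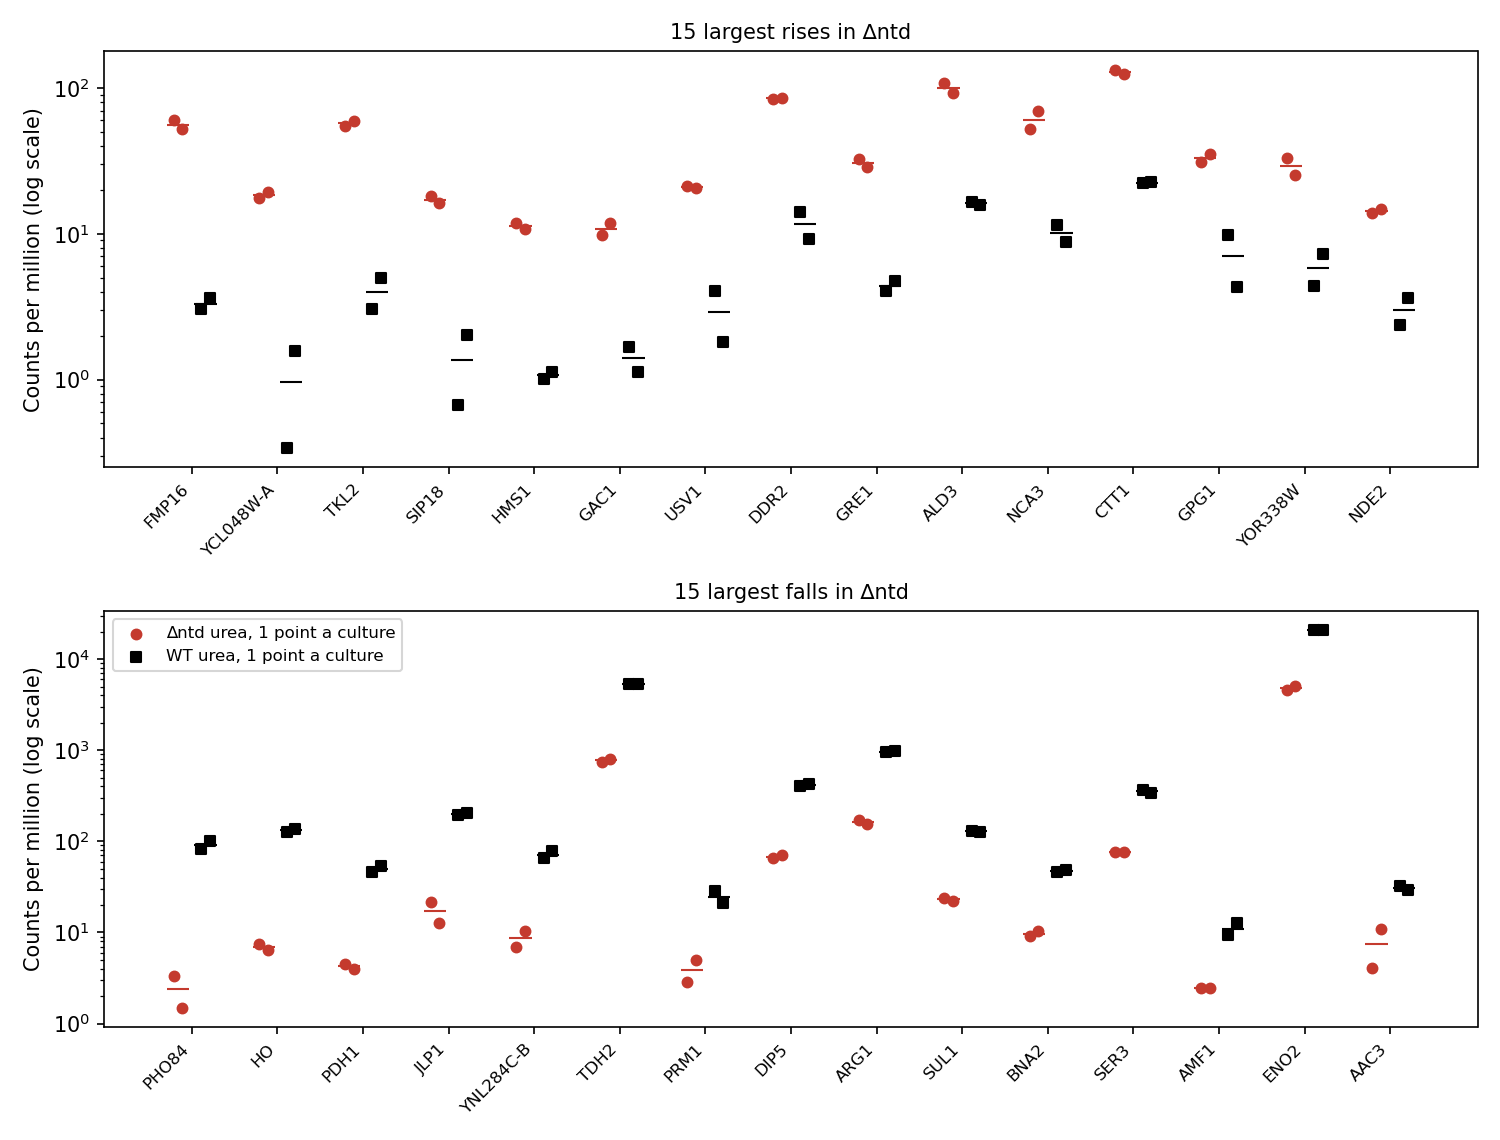
CPM (log scale) of the 15 largest rises (top) and the 15 largest falls (bottom), with ∆ntd cultures in urea as red circles left of WT cultures in urea as black squares, 1 point a culture and a short line at each mean. In each of the 30 RNAs the 2 cultures of one strain lie beyond the 2 of the other, as the rule for naming them required.

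The largest fall of all named RNAs was that of PHO84, the high-affinity phosphate transporter. It had 8 and 3 counts in ∆ntd, against 242 and 442 counts in WT, or 3.29 and 1.48 CPM against 81.5 and 99.8 CPM, a log2 fold change of -5.19 ± 0.27 (adjusted p = 1.1e-16). A non-coding gene, YNCM0001W, overlaps it. The transcription factor Pho4 acts on such genes through CACGTG, a motif that reads the same on both strands, and PHO84 is shown for its 2 copies, 451 to 394 bases before the start codon (chrXIII:26194-26251, minus strand).
PHO84: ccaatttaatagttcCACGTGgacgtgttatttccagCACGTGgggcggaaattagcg
Of the 14 phosphate genes tested, 10 fell and 2 rose, with a median of -0.84. PHO3, an acid phosphatase, had 38.6 and 46.8 CPM in ∆ntd, against 132 and 138 CPM in WT, a log2 fold change of -1.68 ± 0.12. PHO89, the sodium-coupled phosphate transporter, had 4.93 and 4.93 CPM in ∆ntd, against 11.8 and 12.4 CPM in WT. PHM6 had 2 counts in each ∆ntd culture, and its mean WT level was 2.90-fold above a floor of 3 counts per ∆ntd library. The 2 that rose were GIT1, a permease for glycerophosphoinositol, with 1.48 ± 0.37, and the low-affinity transporter PHO87, with 0.20 ± 0.08, a call that 7 of 11 alternatives did not keep. CACGTG was found in the 500 bases before 13 of the 17 phosphate genes in the table, and before 6.22% of all genes with a position.

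HO, the endonuclease of mating-type switching, fell to 18 and 13 counts in ∆ntd, against 374 and 610 counts in WT, a log2 fold change of -4.24 ± 0.17 (adjusted p = 2.0e-19). Several other large falls were in genes of small-molecule metabolism. JLP1, a dioxygenase that releases sulfur from sulfonates, had 21.4 and 12.8 CPM in ∆ntd, against 197 and 203 CPM in WT. PDH1, which acts in the breakdown of propionate, had 4.52 and 3.94 CPM in ∆ntd, against 46.5 and 53.7 CPM in WT. The ∆ntd cultures differed from each other more for JLP1 than for PDH1, and for both genes each lay far below the WT cultures. CIT3, a mitochondrial citrate synthase that also takes part in propionate breakdown, had 4 and 2 counts in ∆ntd, against 13 and 38 counts in WT, and its call was lost without WT replicate 2 in urea (log2 fold change -1.67, against -2.30 with all cultures). BNA2, the dioxygenase that opens the tryptophan route to NAD, fell by 2.29 ± 0.21, and SER3, the phosphoglycerate dehydrogenase of serine synthesis, by 2.21 ± 0.09. The reading frame YJR079W overlaps BNA2, and the non-coding gene YNCE0017W overlaps SER3, so these reads cannot be assigned to 1 gene without strand. AAC3, an ADP/ATP carrier of cells short of oxygen, fell by 2.09 ± 0.28 and AMF1, a low-affinity ammonium transporter, by 2.17 ± 0.43. YNL284C-B, a Ty element frame, fell by 3.08 ± 0.21, but 97.0% of its 28-base windows occur in other genes.

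Glycolysis turns glucose into pyruvate, and its RNAs are among the most abundant in yeast. Of 17 glycolysis genes tested, 16 fell in ∆ntd in urea and none rose, and the list took 6.62% and 6.76% of the reads in ∆ntd, against 12.3% and 12.4% in WT. TDH2, a glyceraldehyde-3-phosphate dehydrogenase, had 742 and 808 CPM in ∆ntd, against 5341 and 5372 CPM in WT, a log2 fold change of -2.79 ± 0.06 (adjusted p = 2.3e-25). The enolase ENO2 had 4592 and 5100 CPM in ∆ntd, against 20873 and 20632 CPM in WT, and ENO1 had 1910 and 1993 CPM in ∆ntd, against 5637 and 5482 CPM in WT. Every WT culture was over 2-fold above every ∆ntd culture for these genes. TDH2 shares 54.6% and each enolase 42.4% of its 28-base windows with other genes. HXK2, the main hexokinase on glucose, which shares none, had 702 and 721 CPM in ∆ntd, against 2406 and 2444 CPM in WT, a log2 fold change of -1.77 ± 0.06. With library totals alone, 16 of the 17 were still lower and the median was -0.73.

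The enzymes that take pyruvate on to ethanol and acetate fell as well, 12 of 14 being lower and 1 higher, with a median of -1.05. ADH1, the main ethanol-forming alcohol dehydrogenase, had 4556 and 5349 CPM in ∆ntd, against 13662 and 14487 CPM in WT, a log2 fold change of -1.51 ± 0.07. PDC1, the main pyruvate decarboxylase, had 5983 and 7963 CPM in ∆ntd, against 15343 and 19704 CPM in WT, a log2 fold change of -1.33 ± 0.09. PDC6 fell by 1.67 ± 0.21. ADH2, the glucose-repressed enzyme that consumes ethanol, had 0 and 3 counts in ∆ntd, against 29 and 20 counts in WT. Its mean WT level was 5.27-fold above a floor of 3 counts per ∆ntd library. The smallest fall of ADH2 among the alternatives was -2.14 on the log2 scale. The only member that rose was ALD3, described above. Among hexose transporters, 4 of 8 tested fell and 2 rose. HXT2, HXT4, HXT3 and HXT1 fell by 1.06 ± 0.12, 1.00 ± 0.12, 0.76 ± 0.06 and 0.52 ± 0.06, while HXT5, a transporter of slowly growing cells, had 43.6 and 57.6 CPM in ∆ntd, against 12.5 and 11.7 CPM in WT. HXT7 was also higher, but 96.0% of its 28-base windows are shared with other genes. The trehalose and glycogen genes were split, 4 higher and 6 lower of 16, and 8 higher and 3 lower with library totals alone: the glycogen debranching enzyme GDB1 and the glycogen phosphorylase GPH1 rose by 0.80 ± 0.10 and 0.68 ± 0.07, and the glycogen synthase GSY1 fell by 1.53 ± 0.13. Of 12 osmotic and glycerol genes tested, 5 fell and 1 rose, with a median of -0.26 that was 0.06 with library totals alone. Among them were the glycerol-forming enzymes GPP1, GPD1 and GPD2 with log2 fold changes of -1.29 ± 0.06, -1.19 ± 0.08 and -0.97 ± 0.10.

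The citric acid cycle and the respiratory chain went in different directions. Of 12 cycle genes, 10 fell and none rose, while 6 were lower and 1 higher with library totals alone. The isocitrate dehydrogenase subunit IDH1 had 104 and 145 CPM in ∆ntd, against 461 and 450 CPM in WT, a log2 fold change of -1.88 ± 0.09. The aconitase ACO1 had 900 and 950 CPM in ∆ntd, against 3032 and 2965 CPM in WT, and the citrate synthase CIT1 had 269 and 225 CPM in ∆ntd, against 665 and 629 CPM in WT. These are the enzymes at the entry of the cycle, which also lead to 2-oxoglutarate for glutamate. In contrast, 25 of 40 nuclear genes of the respiratory chain and ATP synthase rose and 4 fell, with a median of 0.45. COX7 and COX9, small subunits of cytochrome c oxidase, rose by 1.29 ± 0.17 and 0.98 ± 0.13, and CYC7, the minor form of cytochrome c, by 1.39 ± 0.23, whereas CYC1, the main form, fell by 0.57 ± 0.16 to 26.7 and 27.1 CPM in ∆ntd, against 39.8 and 40.0 CPM in WT. The fall of CYC1 was -0.24 and not called with library totals alone.

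All 8 protein-coding genes of the mitochondrial DNA on the list rose, and their summed level was 5400 and 5198 CPM in ∆ntd, against 2258 and 2376 CPM in WT. COB, cytochrome b, had 610 and 606 CPM in ∆ntd, against 186 and 185 CPM in WT, a log2 fold change of 1.71 ± 0.08 (adjusted p = 3.5e-18). COX3, a core subunit of cytochrome c oxidase, had 1216 and 1194 CPM in ∆ntd, against 457 and 500 CPM in WT. ATP6 and ATP8, subunits of ATP synthase, rose by 1.39 ± 0.07 and 1.49 ± 0.19. OLI1 had the smallest rise, 0.79 ± 0.07, and still did not overlap between strains, with 891 and 978 CPM in ∆ntd, against 518 and 560 CPM in WT. Intron-encoded frames overlap COX1 and COB, so their reads are shared. Of all 19 genes of the mitochondrial genome tested, 18 were higher and none lower, with a median of 1.03, while the medians of the 16 nuclear chromosomes lay between -0.09 and 0.07. The 72 genes of mitochondrial ribosomal proteins, which are nuclear, gave 11 higher and 3 lower, with a median of 0.09. Only 3 were called higher with DESeq2, and 4 without WT replicate 2 or without ∆ntd replicate 1 in urea. More mitochondrial RNA per cell and less nuclear RNA per cell cannot be told apart here.

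**Figure D3:**
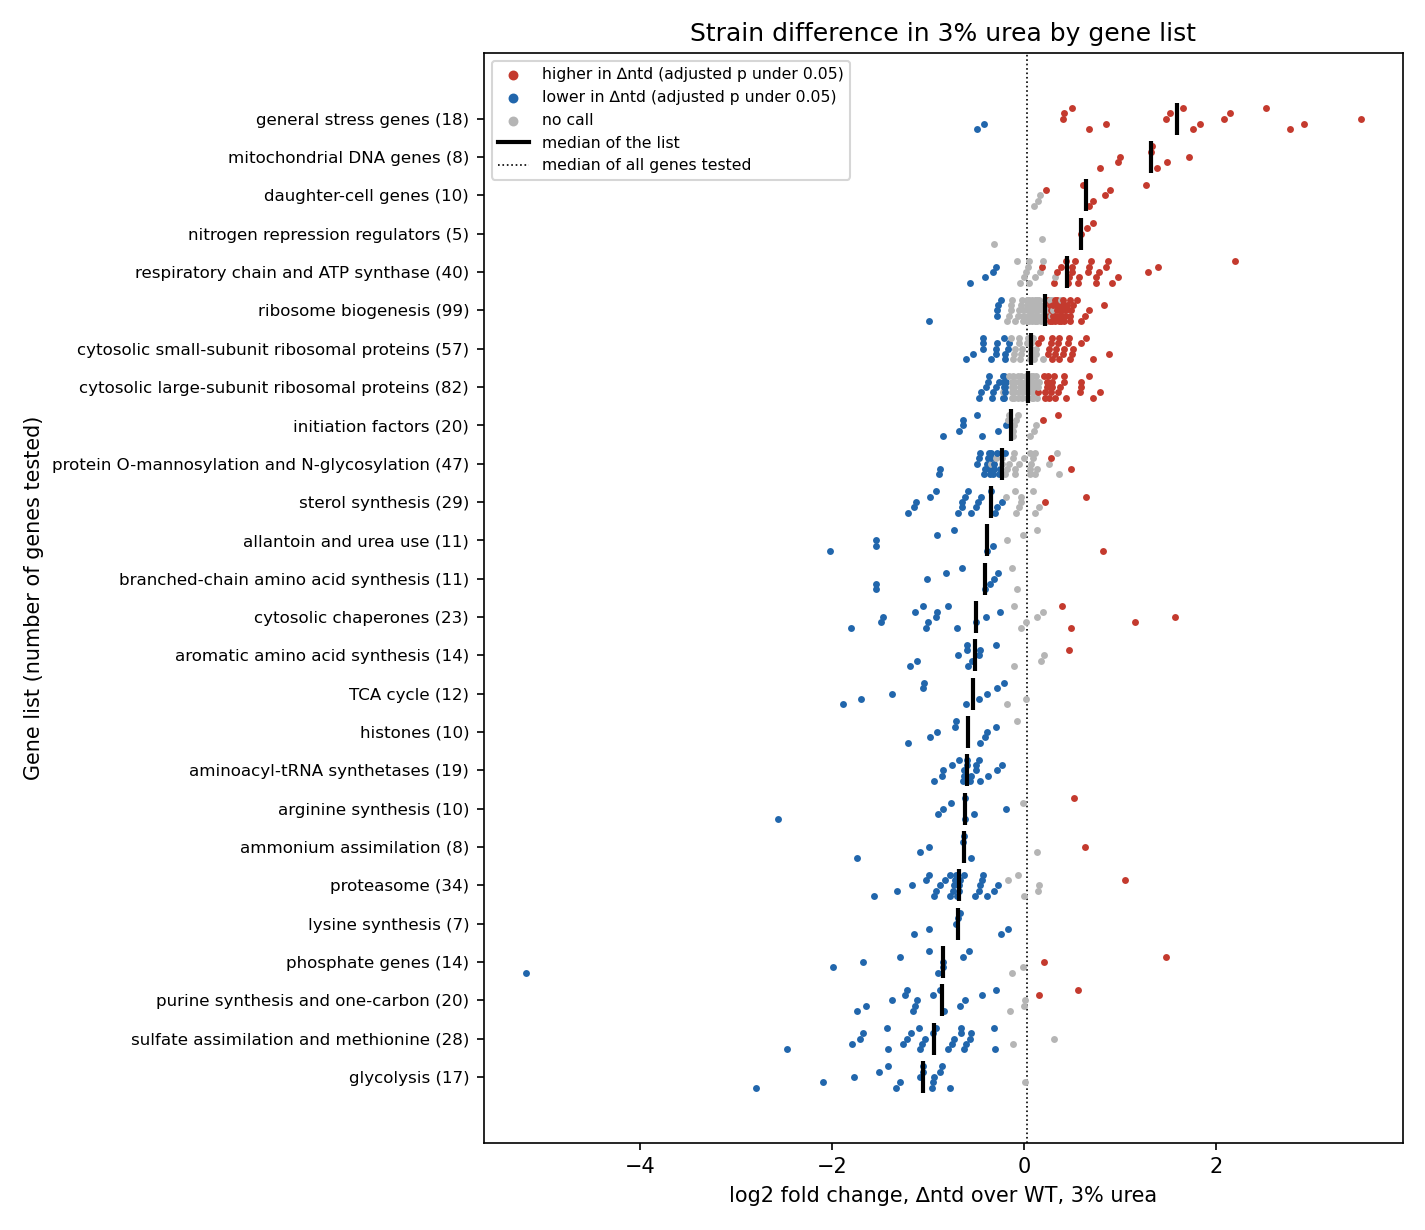
Each point is the log2 fold change of 1 gene (∆ntd over WT, 3% urea, x axis), with 1 row for each of 26 gene lists and the number of genes tested in parentheses. Red genes were higher and blue genes lower in ∆ntd (adjusted p under 0.05), the bar is the median of the list and the dotted line the median of all genes, 0.03. The general stress genes and the mitochondrial DNA genes stand at the top, with medians of 1.58 and 1.32, and glycolysis at the bottom, with a median of -1.05.

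Amino acid synthesis was mostly lower in ∆ntd in urea. With library totals alone, 7 of 10 arginine genes were lower and 1 higher, and 5 of 7 lysine genes lower and 1 higher. For branched-chain amino acids 5 of 11 were then lower and 2 higher, and for aromatic ones 6 of 14 lower and 3 higher. Many of these genes answer to the transcription factor Gcn4 through the element TGACTC. ARG1 and HIS4 are shown because both hold several copies, in capitals on either strand (GAGTCA is the complement). The stretch of ARG1 lies 360 to 254 bases before the start codon (chrXV:218851-218957, plus strand), and that of HIS4 lies 270 to 179 bases before it (chrIII:68512-68603, minus strand).
ARG1: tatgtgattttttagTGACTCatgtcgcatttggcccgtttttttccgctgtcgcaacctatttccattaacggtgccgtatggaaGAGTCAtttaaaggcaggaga
HIS4: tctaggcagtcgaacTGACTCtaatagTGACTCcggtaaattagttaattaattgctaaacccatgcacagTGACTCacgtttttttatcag
The motif was found in the 500 bases before all 10 arginine genes on the list, before 6 of 7 histidine genes, 8 of 11 genes of branched-chain amino acids, 3 of 7 lysine genes and 6 of 15 aromatic amino acid genes, and before 12.6% of all genes with a position. It was found before 8.22% of the RNAs at least 2-fold higher in ∆ntd and 18.6% of those at least 2-fold lower, and before 11.2% of all called higher and 16.3% of all called lower.

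In the arginine pathway 8 of 10 genes fell and 1 rose. ARG1, the argininosuccinate synthetase, had 169 and 157 CPM in ∆ntd, against 957 and 978 CPM in WT, a log2 fold change of -2.57 ± 0.07 (adjusted p = 4.5e-23). CPA1, which acts in making carbamoyl phosphate for arginine, fell by 0.90 ± 0.06, and the exception was ARG2, acetylglutamate synthase, with 69.9 and 47.8 CPM in ∆ntd, against 39.8 and 42.9 CPM in WT. All 7 lysine genes fell, led by the homocitrate synthases LYS20 and LYS21 with -1.15 ± 0.07 and -0.99 ± 0.07, which share 48.6% and 47.2% of their 28-base windows with other genes. Of 11 branched-chain genes 9 fell and none rose. LEU1, which acts in leucine synthesis and is not on the plasmid, had 660 and 644 CPM in ∆ntd, against 1908 and 1889 CPM in WT, a log2 fold change of -1.54 ± 0.06. In the histidine list 4 of 7 fell and 2 rose, with a median of -0.17 that was 0.15 with library totals alone, where 2 were lower and 3 higher. HIS4 had 873 and 906 CPM in ∆ntd, against 1972 and 2030 CPM in WT, and 1 of the 2 that rose was the plasmid marker HIS3. Aromatic amino acid genes gave 10 lower and 1 higher of 14, with TRP5, tryptophan synthase, at 662 and 784 CPM in ∆ntd, against 1641 and 1648 CPM in WT. GCN4 itself, whose protein level is set mainly by translation, went the other way in RNA, with 941 and 904 CPM in ∆ntd, against 575 and 631 CPM in WT, a log2 fold change of 0.61 ± 0.06. In ribosome footprints of the same strains and medium its change was -1.91 on the log2 scale, given as a description from a separate TMM scaling. All 19 aminoacyl-tRNA synthetases fell, by 0.23 to 0.94 on the log2 scale, THS1, the threonyl enzyme, by the most. With library totals alone, 16 of the 19 were lower.

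In sulfate assimilation and methionine synthesis, 26 of 28 genes were lower and none higher, with a median of -0.94. Cbf1 acts on many of these genes at CACGTG, which was found before 19 of the 28, and MET3 is shown for its 2 copies, 392 to 340 bases before the start codon (chrX:455847-455899, plus strand).
MET3: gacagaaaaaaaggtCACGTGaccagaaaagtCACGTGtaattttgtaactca
MET3, ATP sulfurylase, was not among the genes the naming rule takes and was added after its values were seen, with a log2 fold change of -1.42 ± 0.07. SUL1, a sulfate permease, had 23.8 and 22.2 CPM in ∆ntd, against 130 and 127 CPM in WT, a log2 fold change of -2.47 ± 0.13. MUP1, the high-affinity methionine permease, had 65.3 and 66.0 CPM in ∆ntd, against 215 and 216 CPM in WT. MET6, methionine synthase, had 3497 and 3443 CPM in ∆ntd, against 11099 and 11130 CPM in WT, and SAM2, an S-adenosylmethionine synthetase, had 430 and 444 CPM in ∆ntd, against 1538 and 1503 CPM in WT. The pairs of cultures differed from each other by far less than the strains did.

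Purine synthesis and one-carbon metabolism, which pass formyl groups on to purines, showed 15 of 20 genes lower and 2 higher, with a median of -0.86. SHM2, the cytosolic serine hydroxymethyltransferase, had 1163 and 1281 CPM in ∆ntd, against 4046 and 4126 CPM in WT, a log2 fold change of -1.74 ± 0.06. ADE17, which closes the purine ring, had 897 and 921 CPM in ∆ntd, against 2840 and 2846 CPM in WT, and ADE3 and ADE12 fell by 1.38 ± 0.06 and 1.24 ± 0.06. The 2 genes that rose, GCV1 and GCV3 with 0.56 ± 0.07 and 0.16 ± 0.06, belong to the glycine cleavage complex, which breaks glycine down to a one-carbon unit. Only 3 of 11 alternatives kept the call of GCV3. Pyrimidine genes did not follow, since 1 of 8 was lower, URA6 with -0.23 (0.10 with library totals alone), and 2 were higher, the plasmid marker URA3 and URA10, the minor orotate phosphoribosyltransferase, with 1.24 ± 0.32. Of the 5 biotin genes, the biotin synthase BIO2 had 39.9 and 36.5 CPM in ∆ntd, against 137 and 144 CPM in WT, the biotin permease VHT1 fell by 0.84 ± 0.10, and the other 3 were not called.

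Genes of nitrogen use fell in part. Yeast cleaves urea through urea amidolyase, the product of DUR1,2, after import by Dur3, and Gln3 and Gat1 activate such genes when preferred nitrogen sources are short. Of 11 genes for allantoin and urea use, 7 fell and 1 rose, with a median of -0.39, which was -0.07 with library totals alone. DUR1,2 and DUR3 themselves, named here after their values were seen, fell by 0.32 ± 0.05 and 0.39 ± 0.08, and with library totals alone neither was called and DUR1,2 stood at 0.0011. The allantoin genes fell further. DAL1, allantoinase, had 9.86 and 8.87 CPM in ∆ntd, against 27.3 and 27.5 CPM in WT, a log2 fold change of -1.54 ± 0.25. DAL7 had 328 and 299 CPM in ∆ntd, against 580 and 599 CPM in WT, and DAL82, an activator of these genes, rose by 0.82 ± 0.21. Of the GATA factors, GLN3, GAT1 and GZF3 rose by 0.59 ± 0.14, 0.65 ± 0.14 and 0.71 ± 0.12. Ammonium assimilation was lower in 6 of 8 genes: the glutamate dehydrogenase GDH1 had 537 and 602 CPM in ∆ntd, against 1840 and 1952 CPM in WT, and the glutamine synthetase GLN1 had 1613 and 1689 CPM in ∆ntd, against 3219 and 3361 CPM in WT. GDH2, which works towards breakdown of glutamate, was the 1 gene that rose, by 0.63 ± 0.10.

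The permease lists were mixed. Of 13 genes of the SPS amino acid sensor and its permeases, 4 fell and 2 rose, with a median of -0.03 that was 0.29 with library totals alone. Of 10 nitrogen-repressed permeases and GABA genes 5 fell and 2 rose, with a median of -0.57. With library totals alone 4 were lower and 3 higher, with a median of -0.25. DIP5, the permease for glutamate and aspartate, had 64.9 and 70.5 CPM in ∆ntd, against 403 and 430 CPM in WT, a log2 fold change of -2.63 ± 0.09 (adjusted p = 2.4e-21). GAP1, the general amino acid permease, had 179 and 184 CPM in ∆ntd, against 426 and 416 CPM in WT, and the peptide transporter OPT2 had 12 and 8 counts in ∆ntd, against 40 and 61 counts in WT. PTR2, the peptide permease, went the other way with 53.0 and 43.4 CPM in ∆ntd, against 11.8 and 17.2 CPM in WT. In the breakdown of arginine and proline, 3 of 6 genes fell and 1 rose. PUT1, the proline oxidase, had 81.0 and 89.7 CPM in ∆ntd, against 21.9 and 23.3 CPM in WT, a log2 fold change of 1.90 ± 0.13, while the arginine catabolic transaminase CAR2 had 64.9 and 73.9 CPM in ∆ntd, against 198 and 198 CPM in WT.

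The translation apparatus moved less. Of 20 initiation factors 8 fell and 2 rose, with a median of -0.14 that became 0.18 with library totals alone, so their direction depended on the scaling. The helicase DED1 and its relative DBP1 fell by 0.64 ± 0.06 and 0.84 ± 0.24, FUN12 (eIF5B) by 0.63 ± 0.06 and HCR1, a partner of eIF3, by 0.68 ± 0.09, whereas SUI1 (eIF1) and TIF11 (eIF1A) rose by 0.36 ± 0.07 and 0.20 ± 0.07. Among elongation and termination factors 8 of 13 fell and 1 rose, with a median of -0.25 that became 0.08 with library totals alone, where 2 were lower and 5 higher. TEF4, a subunit of elongation factor 1, had 716 and 809 CPM in ∆ntd, against 1584 and 1684 CPM in WT, and YEF3, elongation factor 3, had 9905 and 10244 CPM in ∆ntd, against 15718 and 16295 CPM in WT.

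The cytosolic ribosomal protein RNAs did not move as 1 block. Of 82 large-subunit genes, 24 rose and 18 fell, with a median of 0.03, and of 57 small-subunit genes, 23 rose and 14 fell, with a median of 0.07, both close to the 0.03 of all genes. With library totals alone 61 and 45 of them were called higher, since that scaling lifts all genes. Their summed levels were nearly equal, at 92621 and 91532 CPM for the large subunit in ∆ntd, against 91126 and 92807 CPM in WT. Members differed from one another by more than 1 on the log2 scale: RPL38 had 1339 and 1209 CPM in ∆ntd, against 849 and 706 CPM in WT, while RPL3 had 4544 and 4789 CPM in ∆ntd, against 6319 and 6458 CPM in WT. RPS22B and RPS29B rose by 0.89 ± 0.08 and 0.72 ± 0.07. Ribosome biogenesis genes were shifted upwards by a median of 0.22, with 40 higher and 5 lower of 99. DESeq2 called 19 of them higher and 3 lower, and library totals alone 90 higher and 1 lower. The fall that stood out in size was NOP1, the methyltransferase of the snoRNA complexes, with 249 and 334 CPM in ∆ntd, against 566 and 588 CPM in WT.

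Chaperone and proteasome RNAs were largely lower. Of 23 cytosolic chaperones 14 fell and 4 rose, while 12 were lower and 7 higher with library totals alone. The Hsp70 protein SSA2 had 865 and 907 CPM in ∆ntd, against 2933 and 3259 CPM in WT, and the constitutive Hsp90 protein HSC82 had 1272 and 1267 CPM in ∆ntd, against 3514 and 3501 CPM in WT, a log2 fold change of -1.47 ± 0.06. SSA2 shares 65.0% of its 28-base windows with other genes and HSC82 18.3%. The small heat shock protein HSP26 had 492 and 426 CPM in ∆ntd, against 153 and 157 CPM in WT, and BTN2, a sorting factor for misfolded proteins, rose by 1.15 ± 0.14. HSP42, another small heat shock protein, and SSE2, an exchange factor of Hsp70, were the other 2 that rose with TMM scaling, by 0.39 ± 0.11 and 0.49 ± 0.09. In mitochondria, 6 of 7 chaperones fell, and 4 were lower with library totals alone. The chaperonin HSP60 had 467 and 520 CPM in ∆ntd, against 1558 and 1554 CPM in WT. The ER list gave 7 lower and 2 higher of 14, with a median of -0.32 that was 0.01 with library totals alone. PDI1 and KAR2 fell by 1.16 ± 0.07 and 1.13 ± 0.06. Of 34 proteasome genes 28 fell and 1 rose, with a median of -0.68. With library totals alone 21 were lower and 4 higher. PRE2, a catalytic subunit, had 84.3 and 93.1 CPM in ∆ntd, against 260 and 264 CPM in WT, a log2 fold change of -1.57 ± 0.09. With TMM scaling the 1 gene that rose was RPN4, which encodes the transcriptional activator of proteasome genes and is not a subunit. It had 137 and 135 CPM in ∆ntd, against 68.4 and 64.3 CPM in WT.

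**Figure D4:**
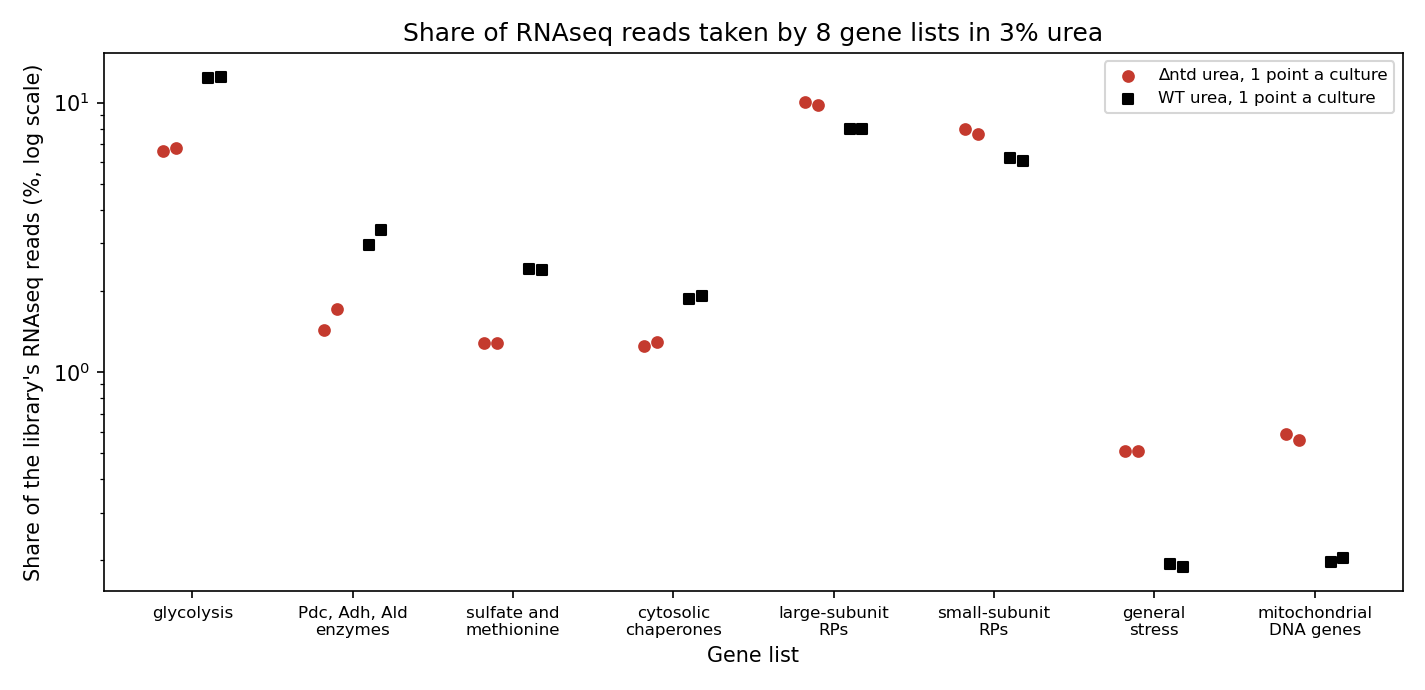
Share of the RNAseq reads on genes (%, log scale, y axis) taken by 8 gene lists, with ∆ntd cultures in urea as red circles left of WT cultures in urea as black squares, 1 point a culture. Glycolysis took 6.62% and 6.76% in ∆ntd against 12.3% and 12.4% in WT, and the mitochondrial DNA genes 0.588% and 0.559% in ∆ntd against 0.197% and 0.204% in WT.

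Genes of the cell surface and of mating were mixed. Over all genes tested 43.9% were called, and the counts of these lists are to be read beside that share. Of 34 cell wall genes tested 11 rose and 11 fell, with a median of 0.08, against 0.03 for all genes. CCW12, an abundant wall mannoprotein, had 6705 and 7486 CPM in ∆ntd, against 4006 and 3702 CPM in WT, SED1, a wall protein of stationary cells, had 1000 and 1018 CPM in ∆ntd, against 503 and 383 CPM in WT, and PIR3 rose by 1.84 ± 0.19. CWP1 had 64.1 and 81.8 CPM in ∆ntd, against 171 and 194 CPM in WT. Of 10 genes of the daughter cell, which act in cell separation, 7 rose and none fell, and the chitinase CTS1 had 1296 and 1401 CPM in ∆ntd, against 697 and 804 CPM in WT. Of 22 pheromone-induced genes tested, 8 fell and 2 rose, with a median of -0.15 that was 0.17 with library totals alone, where 5 were lower and 7 higher. PRM1, a membrane protein of cell fusion, had 7 and 10 counts in ∆ntd, against 84 and 94 counts in WT. FUS1 fell by 1.49 ± 0.24. FIG1 and PRM2 had 1 count in each ∆ntd culture, and their mean WT levels were 4.07-fold and 3.78-fold above a floor of 3 counts per ∆ntd library. Of 7 a-specific genes tested, 3 fell and 2 rose, with a median of -0.24 and changes from -1.76 to 0.64. With library totals alone 2 were lower and 3 higher. Not all of them are named here. Among them, the protease BAR1, which degrades alpha factor, had 198 and 253 CPM in ∆ntd, against 618 and 573 CPM in WT, whereas the a-factor gene MFA2 rose by 0.64 ± 0.09. Glycosylation genes shifted little, with 21 lower and 2 higher of 47 and a median of -0.23, which was 0.10 with library totals alone.

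Other lists were smaller or mixed. Of 29 sterol genes 18 fell and 2 rose, with a median of -0.34 that was -0.02 with library totals alone. ERG6 and ERG13 fell by 1.21 ± 0.08 and 1.15 ± 0.08, and the sterol-responsive activator UPC2 rose by 0.64 ± 0.11. Of 16 genes for inositol, phospholipids and fatty acids 10 fell and 2 rose, with a median of -0.25 that was 0.07 with library totals alone, INO1 the most with 31.2 and 49.8 CPM in ∆ntd, against 113 and 93.2 CPM in WT, and the repressor OPI1 rose by 0.73 ± 0.08. Of 10 histone genes 9 fell, HHF2 by 1.21 ± 0.07, and with library totals alone 5 were lower and 1 higher. Of 22 genes of oxidative defence tested 12 fell and 5 rose, and 5 were lower and 7 higher with library totals alone: the peroxiredoxin AHP1 had 914 and 1171 CPM in ∆ntd, against 2771 and 3237 CPM in WT, and the minor peroxiredoxin TSA2 rose by 1.45 ± 0.29. Of 17 cyclin and cell cycle genes 5 rose and 1 fell, while DESeq2 called 2 higher and 1 lower. The mitotic cyclin CLB1 had 388 and 329 CPM in ∆ntd, against 157 and 163 CPM in WT, and the G1 inhibitor WHI5 had 18 and 10 counts in ∆ntd, against 55 and 77 counts in WT. Among metal genes, the siderophore transporter ENB1 had 85.5 and 99.0 CPM in ∆ntd, against 221 and 252 CPM in WT, in a list of 21 iron genes with 5 lower and 2 higher, or 3 lower and 7 higher with library totals alone. Of 9 zinc genes 4 rose and 4 fell, and of 38 autophagy genes 9 rose and 7 fell, where DESeq2 called 1 and 4 of the zinc genes and 5 and 4 of the autophagy genes. Of 13 thiamine and vitamin B6 genes tested 4 rose and none fell, among them PDC2, an activator of thiamine genes, with 0.94 ± 0.10. The drug efflux pump PDR5 fell by 1.02 ± 0.06 in a list of 10 with 2 lower and none higher, or 1 lower and 5 higher with library totals alone.

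The same strains were also compared without urea, from cultures that share no sample with the urea cultures. Across the 5486 genes the strain effect in urea and that in SD had a Pearson r of 0.67, a description across genes, which are not independent replicates. Of the RNAs called in urea, 1381 were also called in SD in the same direction and 41 in the opposite direction. The test of the difference between the 2 strain effects called 574 RNAs. The effect was more positive in urea for 241 of them, which is 4.39% of the genes tested, and more negative for 333, which is 6.07%. Large-subunit ribosomal protein genes were among the first group in 25 of 82 cases and small-subunit genes in 19 of 57, with none in the second group: the medians of the 2 lists were -0.17 and -0.12 in SD, against the 0.03 and 0.07 in urea. General stress genes were more positive in urea in 10 of 18 cases and more negative in 2, and mitochondrial DNA genes were more positive in 5 of 8. The strain effect was more negative in urea for 12 of 28 sulfate and methionine genes, 11 of 34 proteasome genes, 10 of 20 purine and one-carbon genes and 8 of 17 glycolysis genes.

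The genes with the largest differences between media include DIP5, OPT2 and PUT1, which were called in both media with opposite signs. DIP5 was higher in ∆ntd without urea, with 224 and 234 CPM in ∆ntd, against 51.5 and 44.6 CPM in WT, and its strain effect was 4.87 ± 0.13 lower on the log2 scale in urea than in SD (adjusted p = 2.1e-23). OPT2 likewise had 41.0 and 36.7 CPM in ∆ntd in SD, against 14.3 and 12.3 CPM in WT in SD. PUT1 was lower in ∆ntd in SD, with 74.0 and 72.4 CPM in ∆ntd in SD, against 101 and 99.9 CPM in WT in SD. MCH5, a riboflavin transporter, was not called in SD, where it had 37.4 and 31.2 CPM in ∆ntd in SD, against 41.3 and 37.6 CPM in WT in SD. In urea MCH5 had 137 and 116 CPM in ∆ntd, against 41.4 and 34.8 CPM in WT. HO and PHO84 were lower in ∆ntd in both media, and in SD HO had 75.5 and 81.6 CPM in ∆ntd, against 150 and 163 CPM in WT, while PHO84 had a log2 fold change of -1.52 ± 0.20. FMP16, GAC1 and HMS1 had strain effects that were 1.94 ± 0.34, 2.28 ± 0.56 and 2.19 ± 0.60 more positive in urea than in SD. BAP3, a branched-chain amino acid permease, had 7 and 10 counts in ∆ntd in urea, against 35 and 60 counts in WT, but its 3 and 4 counts in ∆ntd in SD, against 1 and 0 counts in WT in SD, give no usable fold.

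**Figure D5:**
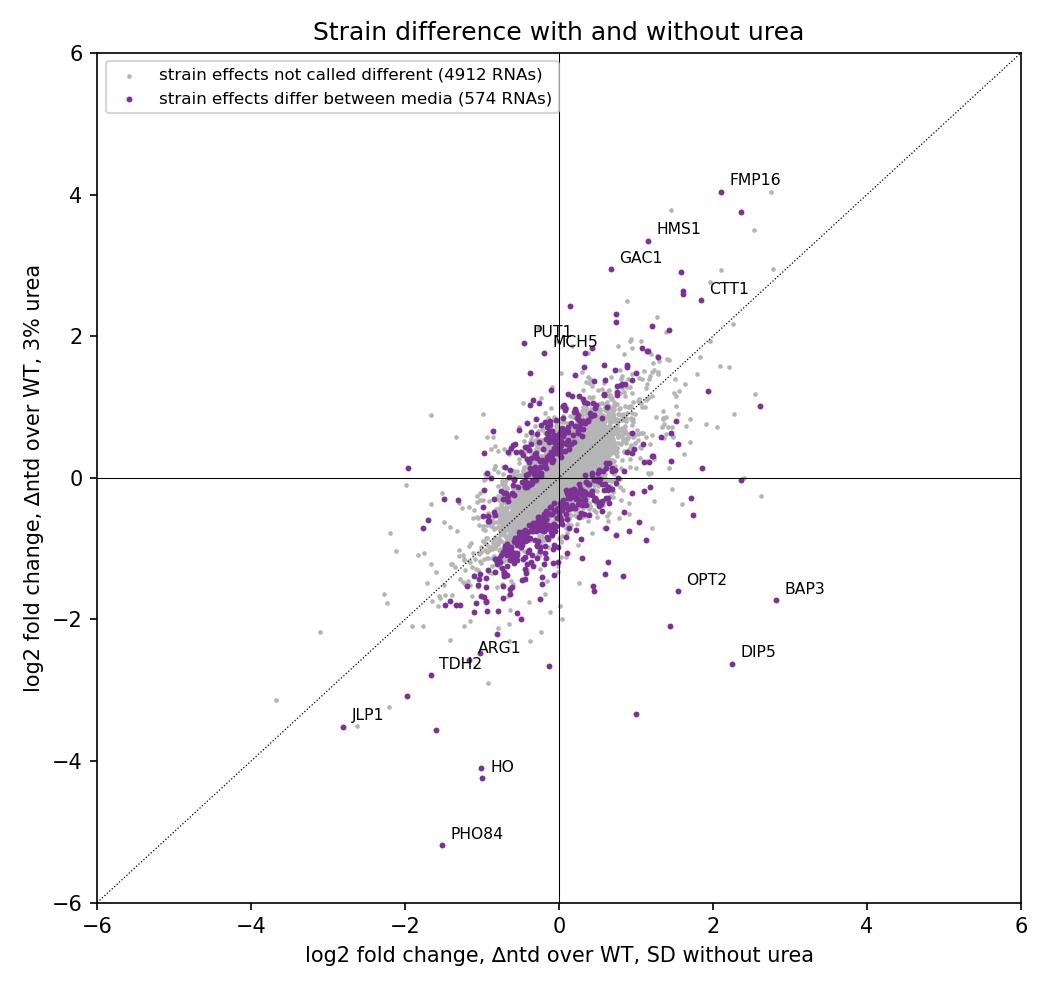
Log2 fold change of ∆ntd over WT in SD without urea (x axis) and in 3% urea (y axis), with 1 point for each of 5486 RNAs. The 574 purple RNAs had strain effects that differed between media (adjusted p under 0.05), the dotted line marks equal effects, and DIP5, BAP3 and OPT2 lie at the lower right, where the sign differs between the media.

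Ribosome footprints of the same strains and medium give the same contrast in another readout, with its own scaling and no test here. Across the 5251 genes tested in both assays, RNA and footprint changes had a Pearson r of 0.51. The general stress genes were higher in both, with a footprint median of 2.07. Glycolysis genes had a footprint median of 0.02 beside the RNA median of -1.05, and ENO2 stood at 0.02 in footprints beside -2.10 in RNA. Ribosomal protein genes had footprint medians of 0.97 for the large and 1.01 for the small subunit beside RNA medians near 0. No footprint median over all genes is given here to set beside the footprint medians of the lists. The mitochondrial DNA genes had a footprint median of -0.15 beside the RNA median of 1.32. Footprints were taken from a size-selected monosome fraction, and whether it captures mitochondrial ribosomes was not tested.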

How the data were processed

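RNAseq libraries from yeast extracts were depleted of ribosomal RNA with Ribo-Zero Gold, fragmented at random and size-selected. The authors trimmed reads (cutadapt 1.1 in the submitters' processing notes), mapped them with Bowtie (1.1 and 0.1.3) and kept uniquely mapped reads, and the deposited values are raw read counts per gene. The same table holds the authors' own fold changes and false discovery rates, which were not used. Whether counting used strand is not given in the sources used here.

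Genes were filtered with filterByExpr, scaled by TMM and tested with the quasi-likelihood test of edgeR 4.0.16 (R 4.3.3, limma 3.58.1) over the 8 RNAseq libraries, with 1 mean for each of 4 groups of 2 cultures and Benjamini-Hochberg adjustment over 5486 genes. All adjusted p values are from this test, and SE is that of the fitted log2 fold change. A called gene has an adjusted p under 0.05. An exact permutation test of 2 against 2 cultures cannot give a p below 0.333, so none was run. No library pair agreed within sampling noise. For genes at or under 3 counts in both cultures of a strain, the mean CPM of the other strain was divided by that floor. The resulting fold covers counting error only and leaves out the spread between cultures.

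The genes named were the 15 largest rises and 15 largest falls with a mean of at least 10 CPM in the higher strain and no overlap between strains, all members of lists of up to 8 genes, up to 4 rises and 4 falls of longer lists, the plasmid and mating markers, and the 5 largest differences between media in each direction. Exceptions are stated, and 1 gene that the rule takes is not reported here. The members and the 58 gene lists were chosen with earlier results of these data known. Of the lists, the subtelomeric PAU genes had no gene tested. DNA sequences and positions are from the RefSeq copy of the R64 genome, in which 6008 genes were matched by name. Shared windows are 28-base stretches of a coding sequence that occur in another one. Alternatives were DESeq2 1.42.0, library totals, other filters, a replicate block, the 4 urea libraries alone, leaving out each culture and thinned counts. Figures were drawn with matplotlib 3.10.9 in Python 3.11.15.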

Additional observations from a re-analysis of the deposited data

Results flagged for a closer look

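The strain effect differed between urea and SD for 574 RNAs by the test of the difference itself. Among RNAs with a mean of at least 10 CPM in 1 of the 4 groups and no overlap between the strains in urea, the 5 with the most negative differences, as the strain effect in urea minus that in SD on the log2 scale, were DIP5 with -4.87, BAP3 with -4.55, PHO84 with -3.67, HO with -3.24 and OPT2 with -3.14. PRM2, which is below that level, had a difference of -4.34, with 1 count in each ∆ntd culture in urea. The SD counts of BAP3 give no usable fold, so the size of the difference is uncertain for both BAP3 and PRM2. The 5 with the most positive differences were PUT1 with 2.36, GAC1 with 2.28, HMS1 with 2.19, MCH5 with 1.95 and FMP16 with 1.94. With DESeq2, BAP3, GAC1 and HMS1 missed the threshold. Without single cultures, BAP3 lost its call for either of 2 SD cultures, GAC1 for WT replicate 2 in urea, and HMS1 for 5 of 8 cultures. Groups of 2 cultures are too small for a test of single samples that stand apart.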

How the results depend on the processing

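DESeq2 called 1635 RNAs in urea, 682 higher and 953 lower, and all 1635 were among the 2410 of edgeR. Library totals alone called 2759 RNAs higher and 519 lower, so that 84.2% of the calls were higher, against 48.9% with TMM. Leaving out 1 urea culture at a time gave 1844 to 2092 calls. For the difference between media, DESeq2 called 260 RNAs (110 more positive and 150 more negative in urea), thinning of counts, which was chosen after seeing the data, left 207 more negative, and leaving out 1 culture gave 317 to 508 RNAs, with 124 to 237 more positive and 183 to 271 more negative. Replicate numbers are shared by the strains. The deviations of same-numbered urea cultures had a correlation of 0.06 across genes, so no clear shared deviation was seen and the main fit did not pair the cultures. Whether same-numbered cultures were handled together is not shown by this value. With the replicate number as a block, 2422 RNAs were called in urea and 581 differed between media. Relative to all genes, the median of the meiosis list lay between -0.034 (without WT replicate 2 in urea) and 0.21 when 1 culture was left out, against 0.16 with all cultures, and that of the copper list was 0.13 with at least 10 counts in every library and 0.14 with the 4 urea libraries alone, against -0.17. Library totals alone gave 0.0011 for DUR1,2, 0.080 for STE2 and 0.10 for URA6. ARG2 was not called without ∆ntd replicate 1 in urea (0.22), nor DAL82 without WT replicate 2 in urea (0.60). GCV3, TIF11, DBP1, PHM6 and URA6 each lost the call under at least 4 alternatives. The causes were not tested. RNAs near 3 counts per library are limited by depth.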
